A study of Mus musculus with 24 samples.

Results

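The genes described here are components of TGF-beta and BMP signalling: the ligands Bmp7, Tgfb1, Tgfb2 and Tgfb3, the receptors Tgfbr1 and Tgfbr2, the inhibitory SMADs Smad6 and Smad7, and the target gene Id1. They come from a list of 10 symbols that was selected on the rise of Bmp7 in E0771-LG cells after Ptn knockdown, so each member's change in that comparison is a description and carries no p-value. The table held 9 of the 10 symbols among its 12091 genes, and Bmp4, which had no row, was skipped. RNA was measured by bulk sequencing in 24 mouse samples, in 8 groups of 3 that form 4 experiments on pleiotrophin, a secreted growth factor encoded by Ptn. The purpose of each experiment was to compare samples with and without pleiotrophin blocked or depleted.

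The 4T1 tumors came from cells of that mammary cancer line implanted in the mammary fat pad of female BALB/c mice at 8 weeks of age. The PyMT tumors arose in female FVB/N mice carrying MMTV-PyMT, a transgene that expresses the polyoma middle T antigen from a promoter active in mammary epithelium. In both models mice received 15 mg/kg, 2 times a week, of 3B10, a monoclonal antibody against pleiotrophin, or of the control antibody C44, and the PyMT mice were dosed from 8 weeks of age until tumors were taken at 12 weeks. E0771 is a C57BL/6 mammary cancer cell line and E0771-LG a line derived from its lung metastasis. Each carried either 1 short hairpin against Ptn (shPTN) or a hairpin against EGFP (shCtrl), in populations infected and selected in puromycin separately, so the hairpin's target, any other target of it and the selected population cannot be told apart. Of the 10 epithelial marker genes, Krt8 and Epcam were over 1 CPM (reads-per-million) above the lowest value in every cell sample, while Cdh1, Krt19, Krt14, Krt5, Cldn4 and Cldn7 were under that level in all cell samples, as were 8 of 10 leukocyte markers.

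Values in the 18 PyMT, E0771 and E0771-LG samples were log2 CPM (counts-per-million, with reads as counts). The totals of counted reads that these values imply were 15.63 to 21.12 M per sample (median 18.24), and are not the reads sequenced. Values in the 6 4T1 samples were on a length-scaled log2 scale of unknown depth, so levels in 4T1 were not set against those of the other experiments. Fold changes are differences of group means on the log2 scale, treated or depleted minus control, with 3 samples in each group, and a gene was called when its adjusted p in limma was under 0.05. These p-values measure only the spread between these tumors or cultures.

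TGF-beta ligands are secreted in a latent form and, once released, bring together the receptors encoded by Tgfbr2 and Tgfbr1, which phosphorylate SMAD2 and SMAD3. BMP ligands such as Bmp7 act through related receptors on SMAD1 and SMAD5, and both branches share SMAD4. In mammary tumors the TGF-beta branch is known both for restraining epithelial growth and for promoting invasion at later stages.

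Ptn, the knockdown's target, was lower in shPTN cells of both lines. In E0771, Ptn was at 2.90, 2.18 and 2.28 log2 CPM in shCtrl (80 to 128 reads) and −0.63, 0.25 and 0.53 in shPTN (12 to 22 reads). No shPTN sample reached the lowest shCtrl sample, and Ptn fell by 2.40 ± 0.37 (SE) on the log2 scale, 5.28-fold (limma, adjusted p = 0.00159). In E0771-LG, Ptn was at 3.65, 4.51 and 3.74 in shCtrl (216 to 446 reads) and 1.42, 0.98 and 1.38 in shPTN (35 to 56 reads). Here too the groups did not overlap, and Ptn fell by 2.71 ± 0.28, 6.52-fold (limma, adjusted p = 6.3e-05). The difference between the lines in this effect was −0.30 ± 0.48 (limma interaction, adjusted p = 0.647), and −0.64 to −0.03 on leaving out 1 sample. In the tumors, where 3B10 binds the protein and not its mRNA, Ptn in PyMT was at 2.80, 2.73 and 3.42 with C44 and 3.28, 2.95 and 4.22 with 3B10, with overlapping groups, a difference of 0.50 ± 0.37 (0.13 without PyMT 3B10 replicate 3, 0.77 without replicate 2) and an adjusted p of 1 in limma. In 4T1, Ptn passed no filter on low values and was not tested, with −0.19, −0.65 and −0.12 in C44 and −0.76, 0.86 and 0.37 in 3B10.

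Bmp7, a BMP ligand known for its part in kidney, eye and bone development, had the values that chose the list. In E0771-LG, Bmp7 (ENSMUSG00000008999, chromosome 2, 172868012 to 172940321, mm10) was at 0.02, −0.01 and 0.46 log2 CPM in shCtrl (17 to 25 reads) and 4.08, 4.22 and 3.86 in shPTN (252 to 357 reads). All 3 shPTN samples were far above all 3 shCtrl samples, with no overlap, and the difference was 3.90 ± 0.26 (SE), 14.9-fold, or 3.06 with a pseudocount of 1. Bmp7 passed the filter on low values there mainly through its shPTN samples. In E0771, a comparison that the choice of the list does not name, Bmp7 was at 2.53, 2.97 and 2.75 in shCtrl (99 to 159 reads) and 3.66, 3.79 and 3.71 in shPTN (204 to 249 reads). Again every shPTN sample was above every shCtrl sample, and Bmp7 rose by 0.97 ± 0.17, 1.96-fold (limma, adjusted p = 0.00351). That call was lost when all 18 samples on the CPM scale were fitted together (adjusted p = 0.309), and its adjusted p ranged from 0.00234 to 0.309 over 16 alternatives. The 2 knockdown effects on Bmp7 were not tested against each other.

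Ordered by mean level on the CPM scale, Bmp7 was lowest in E0771-LG shCtrl (0.16 ± 0.26, SD, n = 3), then PyMT C44 (0.23 ± 0.16), PyMT 3B10 (0.83 ± 1.78), E0771 shCtrl (2.75 ± 0.22), E0771 shPTN (3.72 ± 0.07) and E0771-LG shPTN (4.05 ± 0.19). Each of the 3 lowest groups overlapped the next one up in that order, and the 3 highest groups did not overlap their neighbours among themselves. The 2 control cultures thus differed in Bmp7, with E0771-LG shCtrl below E0771 shCtrl by a log2 difference of −2.59 ± 0.30, given without a test because these E0771-LG samples also chose the list.

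**Figure D1:**
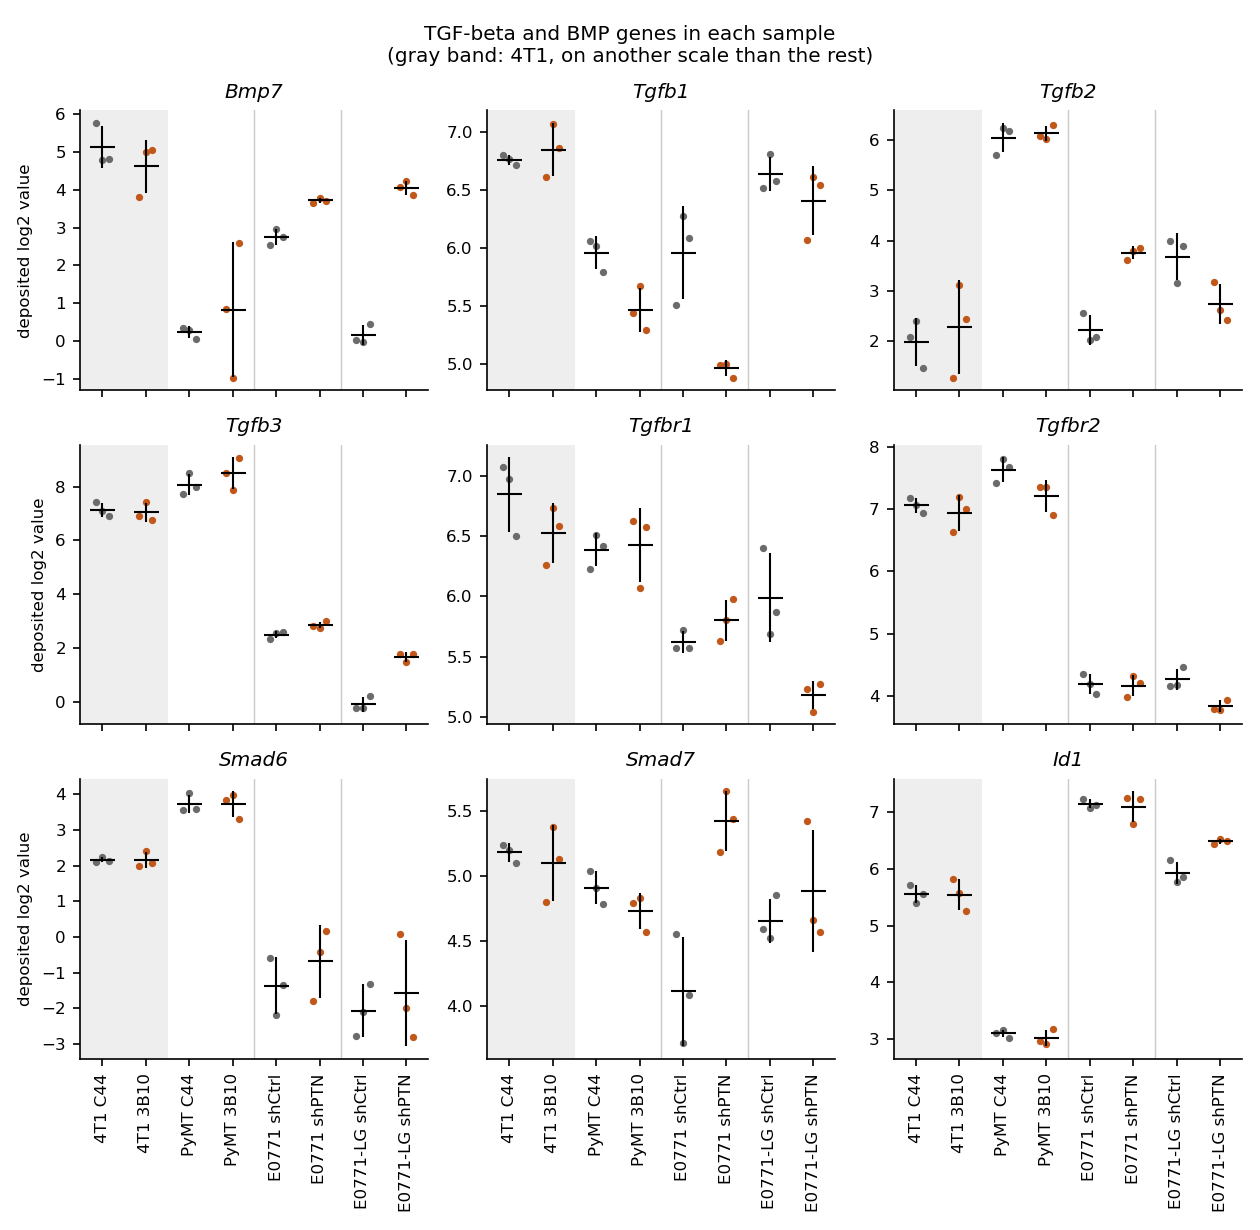
Values of the 9 TGF-beta and BMP genes in each of the 24 samples, with log2 value on the vertical axis and the 8 groups along the horizontal axis. Points are samples, bars show mean ± SD, gray marks controls, orange marks 3B10 or shPTN, and the gray band marks 4T1, which is on another scale. Bmp7 sits between −0.01 and 0.46 in E0771-LG shCtrl and between 3.86 and 4.22 in E0771-LG shPTN.

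Tgfb1 and Tgfb2, which encode 2 of the TGF-beta ligands, changed in opposite directions in E0771. Tgfb1 was at 5.51, 6.28 and 6.09 in E0771 shCtrl and 4.99, 5.0 and 4.88 in shPTN. All 3 shPTN samples were below the controls, and Tgfb1 fell by 1.01 ± 0.17 on the log2 scale, 2.01-fold (limma, adjusted p = 0.00273). Tgfb2 was at 2.57, 2.03 and 2.09 in shCtrl (70 to 102 reads) and 3.61, 3.80 and 3.86 in shPTN (227 to 251 reads). All 3 shPTN samples were above the controls, and Tgfb2 rose by 1.53 ± 0.20, 2.88-fold (limma, adjusted p = 0.00065). In E0771-LG, Tgfb1 was at 6.52, 6.81 and 6.58 in shCtrl and 6.07, 6.61 and 6.54 in shPTN. These groups overlapped, with a difference of −0.23 ± 0.15 that was −0.06 without shPTN replicate 1 and −0.15 without shCtrl replicate 2. Tgfb2 in E0771-LG was at 3.99, 3.15 and 3.90 in shCtrl and 3.18, 2.63 and 2.42 in shPTN. Replicate 1 of shPTN lay above replicate 2 of shCtrl, so the groups overlapped, with a difference of −0.94 ± 0.27, opposite in sign to that in E0771.

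The promoters of these 2 ligand genes are shown because the genes moved apart in E0771. Of the 9 members, 5 had a promoter in the RefSeq table (Smad6, Tgfb1, Tgfb2, Tgfbr1 and Tgfbr2), and Bmp7, Tgfb3, Smad7 and Id1 did not. Each sequence is the 250 bases before the gene's start (GRCm38.p6), written 5′ to 3′ on the gene's strand, for Tgfb1 from chr7:25686752-25687001 on the plus strand and for Tgfb2 from chr1:186705990-186706239 on the minus strand. Capitals mark matches to CAGAC, a core of sites that SMAD3 and SMAD4 can bind, or GTCTG, the same motif on the other strand.
Tgfb1: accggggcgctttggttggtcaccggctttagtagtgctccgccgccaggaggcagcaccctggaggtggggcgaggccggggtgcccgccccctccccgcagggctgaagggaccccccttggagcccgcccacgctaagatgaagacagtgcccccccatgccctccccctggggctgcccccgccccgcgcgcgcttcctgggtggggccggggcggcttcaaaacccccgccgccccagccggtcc
Tgfb2: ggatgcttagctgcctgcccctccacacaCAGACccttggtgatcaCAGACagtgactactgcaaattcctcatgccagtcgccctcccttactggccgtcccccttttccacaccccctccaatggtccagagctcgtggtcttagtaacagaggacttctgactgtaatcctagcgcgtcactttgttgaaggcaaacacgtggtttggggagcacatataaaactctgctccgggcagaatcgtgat
The Tgfb1 window held no match and the Tgfb2 window held 2, and 167 of the 250 bases of the Tgfb2 window overlapped exons of Gm29491, an annotated noncoding gene. GGCGCC, a palindrome that SMAD1 and SMAD5 can bind and that does not overlap the first motif, had no match in either. Among 32841 promoter windows of 250 bases, 13861 (42.2%) held CAGAC or GTCTG and 3149 (9.59%) held GGCGCC. A match shows only that these letters are present.

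Tgfb3, the third TGF-beta ligand gene, was the member whose values over the 12 cell samples came closest to those of Bmp7. In E0771-LG, Tgfb3 was at −0.25, −0.25 and 0.21 in shCtrl (14 to 21 reads) and 1.76, 1.46 and 1.77 in shPTN (49 to 71 reads). All 3 shPTN samples were above the controls, with a difference of 1.76 ± 0.37, or 1.1 with a pseudocount of 1, and the gene passed the filter mainly through those shPTN samples. In E0771, Tgfb3 was at 2.34, 2.55 and 2.60 in shCtrl and 2.83, 2.75 and 2.99 in shPTN. The shPTN samples again all lay above the controls, but the difference of 0.36 ± 0.19 did not pass the test (limma, adjusted p = 0.208).

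The 2 TGF-beta receptor genes in the list did not pass the test in E0771 and had lower values in E0771-LG shPTN than in its control. Tgfbr1, the type I TGF-beta receptor that phosphorylates SMAD2 and SMAD3, was at 6.40, 5.69 and 5.87 in E0771-LG shCtrl and 5.23, 5.04 and 5.27 in shPTN. All 3 shPTN samples were below the controls, with a difference of −0.81 ± 0.17. In E0771, Tgfbr1 was at 5.57, 5.72 and 5.57 in shCtrl and 5.63, 5.80 and 5.98 in shPTN, with overlapping groups, a difference of 0.18 ± 0.11 and an adjusted p of 0.298 in limma. Tgfbr2, the type II receptor that binds the ligand and activates the type I receptor, was at 4.16, 4.18 and 4.47 in E0771-LG shCtrl and 3.80, 3.78 and 3.93 in shPTN. These groups did not overlap either, with a difference of −0.43 ± 0.15. In E0771, Tgfbr2 lay between 3.99 and 4.35 in all 6 samples, with a difference of −0.02 ± 0.15 (limma, adjusted p = 0.941) that became 0.01 under median-of-ratios scaling, 0.04 under quantile normalization, and 0.06 and 0.07 without E0771 shCtrl replicate 1 and shPTN replicate 1.

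Smad7, an inhibitory SMAD that blocks the type I receptor and is itself induced by TGF-beta, rose in E0771. It was at 4.55, 3.71 and 4.08 in shCtrl (266 to 403 reads) and 5.18, 5.65 and 5.44 in shPTN (678 to 905 reads). Every shPTN sample was above every control, and Smad7 rose by 1.31 ± 0.20, 2.48-fold (limma, adjusted p = 0.00171). In E0771-LG, Smad7 was at 4.59, 4.52 and 4.85 in shCtrl and 5.42, 4.66 and 4.57 in shPTN. Only replicate 1 of shPTN stood above the controls, and the difference of 0.23 ± 0.21 became −0.04 without that sample. Smad7 lies on chromosome 18, where the median log2 fold change of 258 genes in E0771-LG was −0.47, the lowest of 20 chromosomes (the others −0.03 to 0.21). In E0771 that median was −0.13 over 260 genes (the others −0.08 to 0.07), and its part in the Smad7 values was not tested. Smad6, an inhibitory SMAD that acts mainly on the BMP branch, had 2 to 22 reads in the 12 cell samples and was not tested there.

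Id1, an inhibitor of DNA binding and a direct target of BMP signalling, was higher in E0771-LG shPTN. It was at 6.16, 5.77 and 5.86 in E0771-LG shCtrl and 6.44, 6.53 and 6.50 in shPTN. The shPTN samples were all above the controls, with a difference of 0.56 ± 0.12, 1.48-fold. In E0771, Id1 was at 7.24, 7.07 and 7.13 in shCtrl and 7.26, 6.79 and 7.24 in shPTN. These groups overlapped, and the difference of −0.05 ± 0.12 (limma, adjusted p = 0.805) became 0.10 without E0771 shPTN replicate 2.

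**Figure D2:**
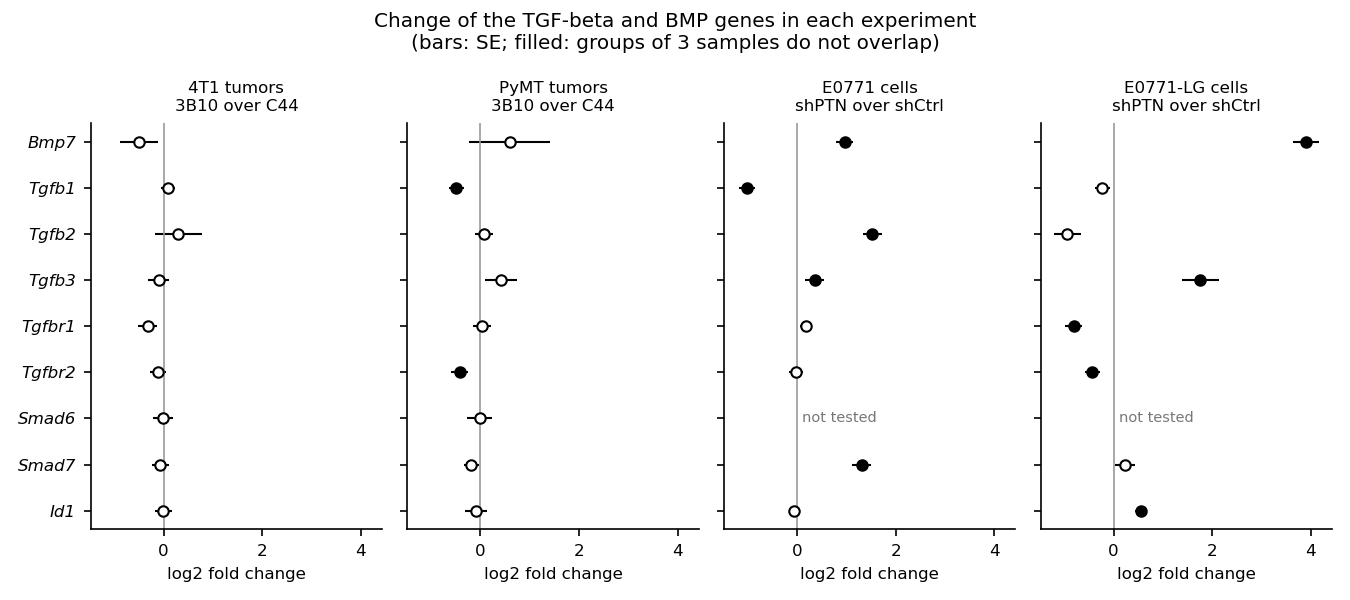
Log2 fold change of each member in the 4 experiments, on the horizontal axis, with bars of 1 SE and 3 samples per group. Filled points mark groups that do not overlap, and Smad6 was not tested in the cells. Bmp7 is at 3.90 in E0771-LG and 0.97 in E0771, and Tgfb2 is at 1.53 in E0771 and −0.94 in E0771-LG.

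Counted together, 8 of the 9 members passed the filter in E0771 and 4 of those 8 were called, with Bmp7, Tgfb2 and Smad7 higher and Tgfb1 lower. Of all 10394 genes tested in E0771, 2140 (20.6%) were called, 924 higher (8.89%) and 1216 lower (11.7%). That total fell to 1268, 1171 and 1238 without E0771 shCtrl replicate 2, shCtrl replicate 3 and shPTN replicate 3, and to 1069 in the joint fit of 18 samples, while the members' count was 4 without any 1 sample and 3 in the joint fit. The groups did not overlap for 5 of the 8, beside 39.4% of all genes tested, Tgfb3 being the member that did not overlap and was not called. In E0771-LG, where the list was chosen, the members' calls are not counted, and of all 10405 genes tested 46.4% were called (24.3% higher, 22.1% lower). The groups did not overlap there for Bmp7, Tgfb3 and Id1, which were above, and Tgfbr1 and Tgfbr2, which were below, as for 57.1% of all genes in either direction.

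The members' levels were also ordered over the 6 groups on the CPM scale. Tgfb3, Smad6, Tgfb2 and Tgfbr2 were highest in the 2 PyMT groups, with means of 8.07 and 8.50 for Tgfb3 (C44 and 3B10) against −0.10 to 2.86 in the cells, 3.73 and 3.72 for Smad6 against −2.07 to −0.69, 6.05 and 6.14 for Tgfb2 against 2.23 to 3.76, and 7.63 and 7.21 for Tgfbr2 against 3.84 to 4.27. Tumors hold other cell types as well as cancer cells, and bulk RNA does not tell more cells of a type from more RNA per cell. Id1 was instead lowest in PyMT, with 3.10 and 3.02 (C44 and 3B10). It was at 5.93 and 6.49 in E0771-LG and 7.15 and 7.10 in E0771 (shCtrl and shPTN), and the groups within PyMT and within E0771 overlapped. Tgfb1 went from 4.96 in E0771 shPTN to 6.64 in E0771-LG shCtrl, and its 4 highest groups each overlapped the next. Smad7 went from 4.11 in E0771 shCtrl to 5.42 in E0771 shPTN, and only E0771 shPTN did not overlap its neighbour. Tgfbr1 went from 5.18 in E0771-LG shPTN, which overlapped no neighbour, to 6.43 in PyMT 3B10, and the 5 higher groups each overlapped a neighbour.

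The 3 genes whose pattern was most like that of Bmp7 over the 12 cell samples, by root mean square difference of log2 values centred on each gene's mean among 10222 genes, were Slc39a8 (0.504), Mt3 (0.635) and Gstt1 (0.683). Slc39a8, a zinc and manganese transporter gene, was at −2.79, −2.12 and −2.05 in E0771-LG shCtrl (2 to 4 reads) and 1.08, 1.27 and 0.85 in shPTN (31 to 44 reads). Mt3, a metallothionein gene, was at −0.07, 0.26 and 0.27 in E0771-LG shCtrl and 2.61, 3.38 and 2.80 in shPTN. Gstt1, a glutathione transferase gene, was at 0.91, 1.28 and 0.71 in E0771-LG shCtrl and 3.13, 3.76 and 4.00 in shPTN. Like Bmp7, each of the 3 had its lowest group in E0771-LG shCtrl, and they were chosen for that likeness, so no test applies. Unlike Bmp7, all 3 overlapped in E0771 between shCtrl (0.73 to 1.22, 2.57 to 3.10 and 3.05 to 3.57) and shPTN (1.05 to 1.93, 2.31 to 2.92 and 2.84 to 3.57). Among the members, Tgfb3 came closest, at 0.891 and position 18 among the 10222 genes.

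**Figure D3:**
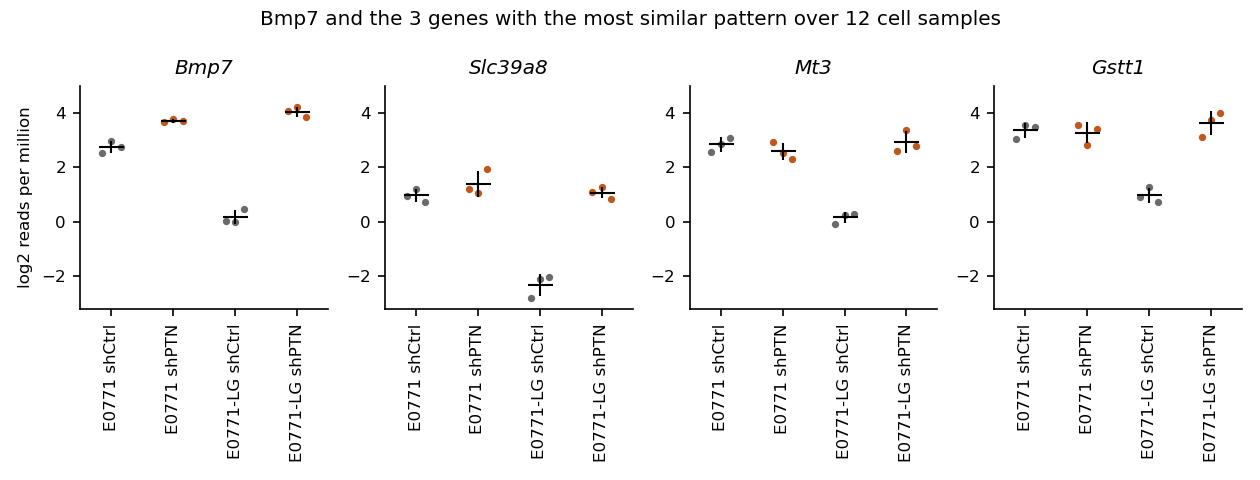
Log2 CPM of Bmp7, Slc39a8, Mt3 and Gstt1 in the 12 cell samples, by group, with points for samples and bars for mean ± SD. In each panel the 3 E0771-LG shCtrl samples are the lowest, from −0.01 to 0.46 for Bmp7 and from −2.79 to −2.05 for Slc39a8.

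The other genes of the pathway were listed by role, 114 symbols in 9 lists, of which 75 were in the table. None of 12 further BMP and GDF ligand genes was in the table. In E0771, 64 of the 75 were tested and 27 (42.2%) were called, 19 higher and 8 lower, beside 20.6% of all genes (8.89% higher, 11.7% lower), and 17 were called in the joint fit of 18 samples. Their median log2 fold change was 0.09 against −0.03 for all genes.

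In E0771 the called genes of the ligand, latency and receptor lists were mostly higher. Gdf11, an activin-type ligand gene, was the 1 gene called of 4 and rose by 0.83 ± 0.09. Of 9 genes that hold TGF-beta latent or release it, 6 were called and all 6 were higher, with a list median of 0.46. Thbs1, whose product thrombospondin can activate latent TGF-beta, was at 4.35, 3.23 and 3.39 in shCtrl and 5.87, 6.87 and 6.34 in shPTN. These groups did not overlap, and Thbs1 rose by 2.70 ± 0.34, 6.52-fold (limma, adjusted p = 0.00178), a call lost with a block on replicate number (0.0668). Nrros, whose product anchors latent TGF-beta, rose by 1.55 ± 0.38 from 10 to 12 reads to 32 to 33 reads (adjusted p = 0.0157), and its call was lost without E0771 shPTN replicate 3 (0.0727) and in the joint fit (0.078). Nrros, 1 of those 6, passed the filter only through its shPTN samples. It was called without the filter too (0.0149), and its rise was 0.81 with a pseudocount of 1. Of 11 receptor and co-receptor genes, Bmpr2, the type II BMP receptor, was the 1 called and fell by 0.55 ± 0.13 (adjusted p = 0.0121), with an adjusted p of 0.0581 without E0771 shCtrl replicate 2.

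The signalling and inhibitor lists were mixed in E0771. Smad5, a BMP-branch SMAD, was the 1 called of 5 SMAD genes and fell by 0.34 ± 0.08 (adjusted p = 0.0141), a call lost without E0771 shCtrl replicate 2 (0.0552) or shPTN replicate 3 (0.0543). Of 5 genes for extracellular antagonists 3 were called. Nbl1, which binds and blocks BMP ligands, was at 2.31, 1.44 and 2.60 in shCtrl and 4.05, 4.04 and 4.01 in shPTN. All shPTN samples were above the controls, and Nbl1 rose by 1.92 ± 0.27 (limma, adjusted p = 0.000867). Fstl1, a follistatin-like gene, rose by 0.51 ± 0.09 (adjusted p = 0.00297, and 0.37 in the joint fit), and Fstl3, an activin antagonist gene, fell by 1.11 ± 0.26 (adjusted p = 0.0117), a call lost without E0771 shCtrl replicate 3 (0.0526) or shPTN replicate 3 (0.0529). Of 13 genes for intracellular regulators, 2 were called and both were lower. Usp15, a deubiquitinase of pathway components, fell by 0.55 ± 0.09, and Tgif1, a co-repressor of SMAD2, fell by 0.50 ± 0.13, with an adjusted p of 0.0763 without E0771 shCtrl replicate 2 and 0.0743 without shCtrl replicate 3.

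All 4 tested genes of the BMP-target list were called higher in E0771, with a list median of 1.89. Of the 4 calls, 3 were lost without particular samples. Id1, a BMP target held among the members instead, was at −0.05 ± 0.12 with overlapping groups (limma, adjusted p = 0.805). Atoh8, a transcription factor gene, was at 2.47, −0.14 and 0.30 in shCtrl (18 to 95 reads) and 3.90, 4.02 and 3.64 in shPTN (195 to 292 reads). Id2, a relative of Id1, was at 6.17, 4.40 and 5.08 in shCtrl and 7.23, 7.35 and 7.26 in shPTN. For both genes shCtrl replicate 1 was the highest control, yet below every shPTN sample. Atoh8 rose by 2.98 ± 0.61 (limma, adjusted p = 0.0117), a call lost without E0771 shCtrl replicate 3 (0.0561, at 2.69) or shPTN replicate 1 (0.0508, at 2.96) and in the joint fit (0.054). Id2 rose by 2.07 ± 0.41 (adjusted p = 0.0157), a call lost without E0771 shCtrl replicate 3 (0.0938, at 2.0), shPTN replicate 1 (0.11, at 2.09) or shPTN replicate 2 (0.102, at 2.03) and with a block on replicate number (0.114). The list's other genes, named after their values were seen, were Id3 and the osteoblast factor gene Runx2. Id3 rose by 1.71 ± 0.39 (adjusted p = 0.025, and 0.101 with that block). Its call was lost without E0771 shCtrl replicate 3 (0.127, at 1.64) or shPTN replicate 1 (0.156, at 1.7), 2 (0.129, at 1.73) or 3 (0.0573, at 1.72). Runx2 rose by 0.86 ± 0.12 (adjusted p = 0.000851), called in all 16 alternatives.

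Of 13 genes in the TGF-beta-target list, 9 were called in E0771, 6 higher and 3 lower, with a list median of 0.52. Col3a1, a fibrillar collagen gene, was at 4.27, 4.43 and 4.54 in shCtrl and 7.49, 6.95 and 7.30 in shPTN. The groups were far apart, and Col3a1 rose by 2.83 ± 0.14, 7.12-fold (limma, adjusted p = 2.02e-06). Col1a2, another collagen gene, rose by 2.36 ± 0.55 from 5 to 30 reads to 55 to 89 reads (adjusted p = 0.012, and 0.0511 without E0771 shPTN replicate 3). It passed the filter mainly through shPTN and was called without the filter too (0.0359), and its rise was 1.41 with a pseudocount of 1. Among the lower genes, Junb, an AP-1 subunit gene, fell by 0.80 ± 0.22 (adjusted p = 0.034), a call held in 9 of 16 alternatives and lost without E0771 shCtrl replicate 2 (0.0916) or replicate 3 (0.103) and without shPTN replicate 1 (0.111), 2 (0.115) or 3 (0.0652), without the filter (0.0562) and in the joint fit (0.0734). Klf10, named after its value was seen, fell by 0.46 ± 0.14 (adjusted p = 0.0356), a call held in 8 of 16 alternatives and lost without any of E0771 shCtrl replicate 1 (0.0599), 2 (0.121) or 3 (0.0902) or shPTN replicate 1 (0.0758) or 2 (0.0723), without the filter (0.0552), under quantile normalization (0.0603) and in the joint fit (0.0586). Of 4 fibroblast markers tested in the same cells 3 were called higher, with a list median of 1.12. The markers Dcn, Lum, Thy1, Postn and Pdpn were under 1 CPM above the lowest value in every E0771 sample and were not tested. Those called, named after their values were seen, were Pdgfra at 1.43 ± 0.18, Pdgfrb at 1.61 ± 0.20 and Col6a3 at 0.82 ± 0.16 (adjusted p = 0.000704, 0.000469 and 0.00532), the last not called in the joint fit (0.19), and their relation to the collagen genes was not tested.

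The promoters of Atoh8 and Col3a1 are shown because these genes had the largest rises of the BMP-target and TGF-beta-target lists in E0771. They are the 250 bases before each start, for Atoh8 from chr6:72235578-72235827 on the minus strand and for Col3a1 from chr1:45311288-45311537 on the plus strand (RefSeq, GRCm38.p6), with matches to CAGAC or GTCTG in capitals.
Atoh8: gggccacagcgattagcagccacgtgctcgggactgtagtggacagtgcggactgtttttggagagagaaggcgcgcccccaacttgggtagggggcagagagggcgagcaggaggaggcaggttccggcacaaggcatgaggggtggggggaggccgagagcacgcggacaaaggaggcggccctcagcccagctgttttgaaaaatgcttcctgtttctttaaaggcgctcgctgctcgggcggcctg
Col3a1: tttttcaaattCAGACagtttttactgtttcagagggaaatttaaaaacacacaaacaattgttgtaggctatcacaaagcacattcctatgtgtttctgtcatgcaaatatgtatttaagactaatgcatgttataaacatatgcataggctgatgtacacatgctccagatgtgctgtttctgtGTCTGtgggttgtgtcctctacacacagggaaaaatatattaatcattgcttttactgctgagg
The Atoh8 window held no match and the Col3a1 window held 2, and GGCGCC was in neither.

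**Figure D4:**
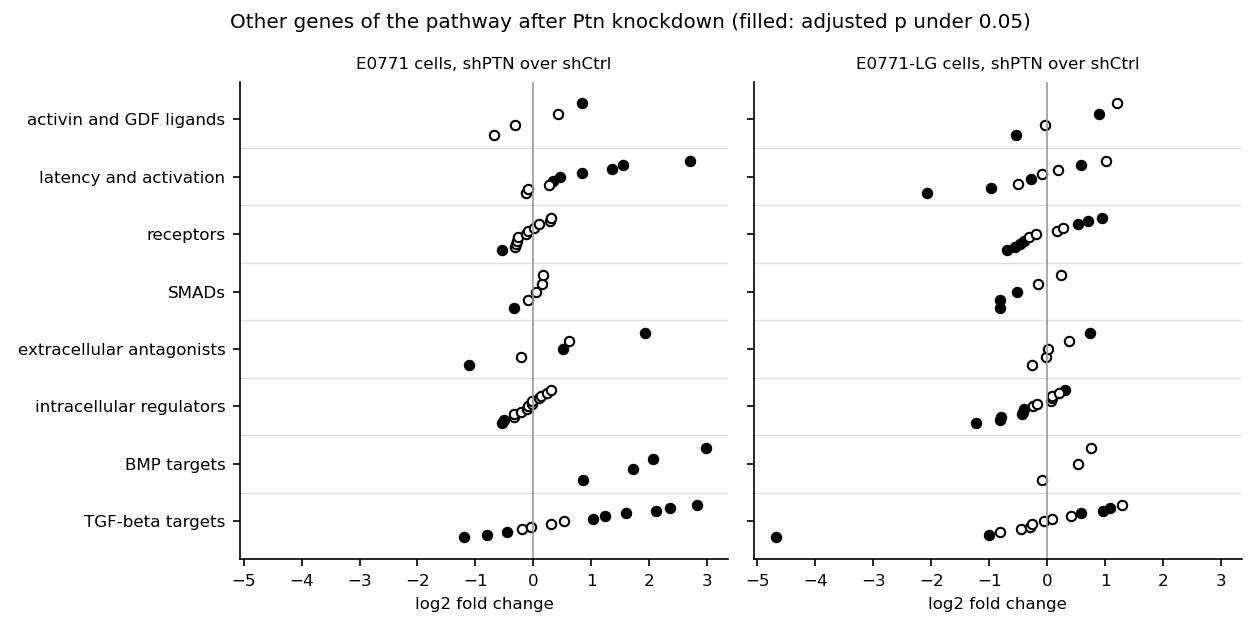
Log2 fold change of each tested pathway gene outside the 10 members, on the horizontal axis, by list, after Ptn knockdown in E0771 and E0771-LG. Filled points mark an adjusted p under 0.05. All 4 genes of the BMP-target list, which leaves out the member Id1, are filled and above 0 in E0771, and Col1a1 is at −4.68 in E0771-LG.

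In E0771-LG the same lists changed in both directions. Of 62 genes tested, 29 (46.8%) were called, 10 higher and 19 lower, beside 46.4% of all genes (24.3% higher, 22.1% lower), so the total share was close to the background. The count was 19 without E0771-LG shCtrl replicate 3 and 16 without E0771-LG shPTN replicate 2. With a block on replicate number 14 were called higher and 19 lower. The median of the 62 was −0.09 against 0.05 for all genes. Of their fold changes 27 were above 0 and 35 below, and that split was not tested. These genes share the samples that chose the list.

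Among the ligand genes in E0771-LG, Lefty1, a secreted antagonist of nodal, rose by 0.89 ± 0.23 (adjusted p = 0.00915), a call lost without E0771-LG shPTN replicate 2 (0.0562) and in the joint fit (0.112). Inhba, which encodes an activin subunit, fell by 0.54 ± 0.19 (adjusted p = 0.0379), a call lost without any 1 of 5 samples, E0771-LG shCtrl replicates 1 (0.0701) and 3 (0.153) and shPTN replicates 1 (0.095), 2 (0.0611) and 3 (0.0961), and in the joint fit (0.292). Of 8 latency and activation genes 4 were called. Thbs1 was at 4.59, 3.79 and 4.62 in shCtrl and 2.32, 2.36 and 2.10 in shPTN. The groups did not overlap, and Thbs1 fell by 2.07 ± 0.24, 4.21-fold (limma, adjusted p = 0.000117). Itgav, an integrin subunit gene whose product releases active TGF-beta, was at 7.28, 7.20 and 7.30 in shCtrl and 6.33, 6.19 and 6.38 in shPTN. These groups were also apart, and Itgav fell by 0.96 ± 0.10 (limma, adjusted p = 6.11e-05). Ltbp4, a latent TGF-beta binding protein gene, rose by 0.58 ± 0.14 (adjusted p = 0.00588).

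The fourth of those latency genes was Ltbp1, named after its value was seen, which fell by 0.27 ± 0.10 in E0771-LG (adjusted p = 0.0421), a call held in 9 of 16 alternatives and lost without shCtrl replicate 2 (0.0504) or 3 (0.185) or shPTN replicate 1 (0.116), 2 (0.0989) or 3 (0.0959), under quantile normalization (0.144) and in the joint fit (0.258). Of 11 receptor genes in E0771-LG, 7 were called. Acvr1b, a type I activin receptor gene, rose by 0.94 ± 0.15 (adjusted p = 0.000568) and Rgma, a BMP co-receptor gene, by 0.70 ± 0.16 (adjusted p = 0.00476). The co-receptor genes Tgfbr3 and Eng fell by 0.70 ± 0.15 and 0.55 ± 0.09 (adjusted p = 0.00428 and 0.00068). The other 3, named after their values were seen, were Amhr2 at 0.54 ± 0.16 (adjusted p = 0.0148), Bmpr1a at −0.47 ± 0.13 (0.0132) and Bmpr2 at −0.39 ± 0.11 (0.0124). Amhr2 was not called without E0771-LG shCtrl replicate 3 (0.0584), shPTN replicate 2 (0.0601) or shPTN replicate 3 (0.0586), under quantile normalization (0.0565) or in the joint fit (0.42), nor were Bmpr1a without shPTN replicate 2 (0.0689) and Bmpr2 without shCtrl replicate 3 (0.0524) or shPTN replicate 2 (0.0563).

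Of 5 SMAD genes that carry the signal, 3 were called in E0771-LG and all 3 were lower, while Smad1 (0.24 ± 0.11, adjusted p = 0.104) and Smad3 (−0.16 ± 0.11, adjusted p = 0.257) were not called. Smad4, the SMAD shared by both branches, was at 7.24, 6.87 and 6.94 in shCtrl and 6.26, 6.18 and 6.15 in shPTN. The groups did not overlap, and Smad4 fell by 0.82 ± 0.11 (limma, adjusted p = 0.000287). Smad5 was at 7.30, 7.15 and 7.16 in shCtrl and 6.47, 6.24 and 6.44 in shPTN. It too was apart, and fell by 0.82 ± 0.10 (limma, adjusted p = 0.000184). Smad2, named after its value was seen, was at 6.35, 6.32 and 6.46 in shCtrl and 5.88, 5.89 and 5.79 in shPTN, and fell by 0.52 ± 0.10 (adjusted p = 0.0017). Smad2 and Smad4, like Smad7, lie on chromosome 18, whose median of −0.47 in E0771-LG was given above, and the part of that shift in their values was not tested. Smad5 lies on another chromosome.

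Of 13 intracellular regulator genes in E0771-LG, 7 were called, 1 higher and 6 lower. Smurf2, a ubiquitin ligase that targets receptors and SMADs, was at 6.92, 6.45 and 6.61 in shCtrl and 5.56, 5.33 and 5.41 in shPTN. All shPTN samples were lower, and Smurf2 fell by 1.23 ± 0.13 (limma, adjusted p = 8.19e-05). Tgif2, a SMAD co-repressor gene, fell by 0.82 ± 0.25 (adjusted p = 0.0203), with 0.0665 and 0.0637 without E0771-LG shPTN replicate 1 and replicate 2, and Usp15 rose by 0.31 ± 0.09 (adjusted p = 0.0164), with 0.0884 without shPTN replicate 3. Nbl1 was the 1 antagonist gene called of 5 and rose by 0.74 ± 0.16 (adjusted p = 0.00301, and 0.109 in the joint fit). None of the 3 BMP-target genes tested was called by limma in E0771-LG, and none had an unadjusted p under 0.05, although their median was 0.54. Id1, a member and not in that list, is given above.

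Of 13 TGF-beta-target genes in E0771-LG, 5 were called, 3 higher and 2 lower. Col1a1, the gene of a chain of type I collagen, was at 3.45, 3.24 and 3.51 in shCtrl (184 to 211 reads) and −0.76, −2.37 and −0.73 in shPTN (3 to 12 reads). The groups were far apart, and Col1a1 fell by 4.68 ± 0.46 (limma, adjusted p = 5.42e-05). Col1a1 passed the filter only through shCtrl. With so few reads in shPTN the size of that fall is uncertain, at 2.99 with a pseudocount of 1 and 5.66 under quantile normalization, and it was called in all 16 alternatives. Cdkn1a, a cell cycle inhibitor gene, rose by 1.08 ± 0.35 at the edge of the threshold (adjusted p = 0.0496), with overlapping groups and a call held in 6 of 16 alternatives. It was lost without E0771-LG shCtrl replicate 1 (0.174) or 3 (0.142) and without shPTN replicate 1 (0.0514), 2 (0.1) or 3 (0.116), and with pseudocounts of 1 (0.0511) and 0.1 (0.0502), median-of-ratios scaling (0.0516), quantile normalization (0.0536) and the joint fit (0.267). Bhlhe40, a transcription factor gene, rose by 0.96 ± 0.26 (adjusted p = 0.0195), a call lost without E0771-LG shCtrl replicate 1 (0.0833) or 3 (0.0543) or shPTN replicate 2 (0.063) or 3 (0.0603). Junb, named after its value was seen, rose by 0.59 ± 0.18 with overlapping groups (adjusted p = 0.0253), a call lost without E0771-LG shCtrl replicate 1 (0.107) or 3 (0.087) or shPTN replicate 2 (0.0919) or 3 (0.078) and in the joint fit (0.0921).

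Some markers of cell types were called in the cultures too, and those below are named after their values were seen. In E0771, both leukocyte markers tested were called higher, Laptm5 at 1.25 ± 0.16 and Coro1a at 0.94 ± 0.24 (limma, adjusted p = 0.000552 and 0.0187), Coro1a not without E0771 shCtrl replicate 1 (0.0533) or shPTN replicate 3 (0.0549) or in the joint fit (0.0666). Tie1 was the 1 called of 3 endothelial markers, at 0.52 ± 0.17 (adjusted p = 0.0497), and was lost without any 1 of the 6 samples (E0771 shCtrl replicates 1 to 3 at 0.094, 0.128 and 0.105, shPTN replicates 1 to 3 at 0.082, 0.0888 and 0.139), in the joint fit (0.237), with voom (0.0508) and with a block on replicate number (0.0829). Esam went the other way, at −0.64 ± 0.23, with every shPTN sample below the controls (limma, adjusted p = 0.0739). Flt1 was at 0.77 ± 0.41 with overlapping groups (limma, adjusted p = 0.209). In E0771-LG, all 3 epithelial markers tested were called higher. Krt8 rose by 1.57 ± 0.14 and Krt18 by 3.0 ± 0.32 (adjusted p = 3.88e-05 and 8.07e-05), Krt18 having passed the filter only through its shPTN samples (adjusted p = 0.00108 without the filter), and Epcam by 0.46 ± 0.16 (adjusted p = 0.0381), lost without E0771-LG shCtrl replicate 1 (0.0581) or 3 (0.109) or shPTN replicate 1 (0.139) or 3 (0.0798) and under quantile normalization (0.107). Laptm5 fell by 0.94 ± 0.10, the 1 called of 2 leukocyte markers, and of 3 muscle and fat markers Fabp4 fell by 2.46 ± 0.42 and Acta1 by 1.20 ± 0.40 (adjusted p = 7.62e-05, 0.0017 and 0.0292), Acta1 not without E0771-LG shCtrl replicate 1 (0.0964) or shPTN replicate 1 (0.0871) or 3 (0.0541) or in the joint fit (0.0776). The uncalled genes of these lists went the other way. Coro1a was at 0.77 ± 0.34 with overlapping groups and Mylpf at 1.09 ± 0.54 with groups apart (limma, adjusted p = 0.0836 and 0.121). Mylpf passed the filter only through its shPTN samples.

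Of 5 fibroblast markers tested in E0771-LG, 4 were called. The markers Lum, Thy1, Postn and Pdpn were under 1 CPM above the lowest value in every E0771-LG sample and were not tested. Pdgfra fell by 0.68 ± 0.16 (limma, adjusted p = 0.00649, and 0.0548 in the joint fit), opposite to its rise in E0771. Pdgfrb, not called, was also below every control, at −1.11 ± 0.44 (limma, adjusted p = 0.0801). The other 3 called genes rose and were less stable. Dcn, at 1.64 ± 0.62 (adjusted p = 0.0486), was lost without E0771-LG shCtrl replicate 3 (0.15, at 0.92), shPTN replicate 2 (0.171) or shPTN replicate 3 (0.135), without the filter (0.0919), without robust variance shrinkage (0.0549) and under quantile normalization (0.124, at 1.0), and was 0.89 with a pseudocount of 1. Col6a3, at 0.50 ± 0.16 (adjusted p = 0.0281), was lost without shPTN replicate 2 (0.0872) or 3 (0.0968) and without the filter (0.0639), and was 0.31 without shCtrl replicate 1. Mfap5, at 0.77 ± 0.26 (adjusted p = 0.0302), was lost without shCtrl replicate 2 (0.0861) or shPTN replicate 2 (0.0856) or 3 (0.11) and under quantile normalization (0.131). All 3 were lost in the joint fit (0.0726, 0.289 and 0.233). Of 4 endothelial markers, Esam rose by 2.51 ± 0.45 (adjusted p = 0.00133), having passed the filter mainly through shPTN (0.00814 without the filter), and Flt1 by 0.90 ± 0.32 (adjusted p = 0.0414), lost without shCtrl replicate 2 (0.0621) or 3 (0.119) or shPTN replicate 2 (0.108) or 3 (0.158), with a block on replicate number (0.0588) and under quantile normalization (0.217, at 0.51). The part of these marker genes in the values of the pathway genes was not tested.

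Whether a pathway gene responded differently in the 2 lines was tested directly, as the E0771-LG effect minus the E0771 effect. Of 62 pathway genes, 27 (43.5%) were called, 7 with a positive and 20 with a negative difference, beside 34.7% of 10223 genes (18.8% positive, 16% negative). Over all genes that split was 1917 positive and 1633 negative, and 1651 and 1932 under median-of-ratios scaling. Thbs1 and Col1a1 had opposite effects in the lines, with differences of −4.78 ± 0.46 and −5.70 ± 0.47 (limma interaction, adjusted p = 3.04e-05 and 4.91e-06). Col1a1 had few reads in E0771-LG shPTN, and its difference ranged from −6.69 to −3.98 over 20 alternatives, all of them called. Col3a1 differed by −3.29 ± 0.33 (adjusted p = 1.71e-05), having risen by 2.83 in E0771 and stood at −0.45 ± 0.32 in E0771-LG. Smad4 and Smurf2 differed by −0.73 ± 0.14 and −1.13 ± 0.17 (adjusted p = 0.00143 and 0.000305). On chromosome 18, where Smad4 lies, the median of this difference was −0.31 over 254 genes (the others −0.01 to 0.26), and its part was not tested.

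The control cultures of the lines were compared to place the starting levels, using the same shCtrl samples as the knockdown comparisons. In E0771-LG shCtrl over E0771 shCtrl, 54.5% of 10411 genes were called, 2004 higher (19.2%) and 3672 lower (35.3%), and the median of all genes was −0.15. Median-of-ratios scaling moved that median to 0.00 and the split to 2854 higher and 2828 lower, and quantile normalization gave 2830 and 2663. Cell type markers, named after their values were seen, also differed between the control cultures, and their part in the values below was not tested. In E0771-LG all 4 fibroblast and 2 epithelial markers tested were called higher, with medians of 1.3 and 0.82. The fibroblast markers Dcn, Lum, Thy1, Postn and Pdpn and 8 of 10 epithelial markers did not pass the filter and were not tested. Of 3 endothelial markers, Tie1 and Esam were called lower, at −1.16 ± 0.27 and −2.99 ± 0.43, and Flt1 was not called at 0.99 ± 0.42. Of 2 leukocyte markers, Laptm5 was called higher by 3.82 ± 0.12 and Coro1a lower at −1.65 ± 0.27. Of 3 muscle and fat markers, Acta1 and Fabp4 were called higher by 3.82 ± 0.55 and 3.24 ± 0.31 and Mylpf lower at −1.71 ± 0.54. Acta1 passed the filter only through E0771-LG shCtrl, Mylpf only through E0771 shCtrl and Esam mainly through E0771 shCtrl. Flt1 and Mfap5, 1 of the 4 fibroblast markers, passed mainly through E0771-LG shCtrl. Of 7 members tested other than Bmp7, 5 were called. Beside that median of −0.15, Tgfb1 was higher by 0.68 ± 0.19 (limma, adjusted p = 0.0138), or 0.45 without E0771 shCtrl replicate 1, and Tgfb2 by 1.45 ± 0.27 (adjusted p = 0.00116), and Ptn by 1.51 ± 0.28 (adjusted p = 0.0012). Tgfb3 was lower, at −2.59 ± 0.32 (adjusted p = 0.0001, and 0.000393 without the filter), having passed the filter mainly through E0771 shCtrl, as was Id1, at −1.22 ± 0.12 (adjusted p = 2.55e-05), and Bmp7 is given above. Smad7 was higher by 0.54 ± 0.20 with overlapping groups (adjusted p = 0.0463), a call lost without E0771 shCtrl replicate 2 (0.167, at 0.34) or 3 (0.115) or E0771-LG shCtrl replicate 1 (0.06) or 3 (0.154), without the filter (0.0823) and without robust variance shrinkage (0.0524). Over 16 alternatives the Smad7 difference ranged from 0.34 to 0.86. Tgfbr1 was not called at 0.36 ± 0.17 (adjusted p = 0.0894), but was without E0771-LG shCtrl replicate 2 (0.017), under median-of-ratios scaling (0.0279) and under quantile normalization (0.0262). Tgfbr2, at 0.08 ± 0.15 (adjusted p = 0.689), was called under quantile normalization (0.0477).

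Of the other pathway genes, 35 of 61 were called between the control cultures, 14 higher and 21 lower in E0771-LG, or 57.4% beside 54.5% of all genes (18 and 16 under median-of-ratios scaling, 18 and 15 under quantile normalization), with a median of −0.11 against −0.15 for all genes. Among receptors, 8 of 11 were called. Acvr1b was lower at −1.91 ± 0.13 (limma, adjusted p = 3.97e-06) and Acvrl1, a receptor of endothelial BMP signalling, at −1.72 ± 0.25 (adjusted p = 0.000291), while Amhr2 was higher by 1.06 ± 0.21 (adjusted p = 0.0017, and 0.0996 in the joint fit). The antagonist genes Fstl1 and Twsg1 were lower, at −2.18 ± 0.17 and −1.44 ± 0.10, and Nbl1 was higher by 1.24 ± 0.29 (adjusted p = 1.5e-05, 5.26e-06 and 0.00466). Among targets, Ccn2, a matricellular TGF-beta target gene, was higher by 2.38 ± 0.43 (adjusted p = 0.00175), and Col3a1 lower at −2.15 ± 0.26 (adjusted p = 0.000105). Ccn1, of the same family as Ccn2, was higher by 1.23 ± 0.31 (adjusted p = 0.0141, and 0.0529 without E0771 shCtrl replicate 3), and Col1a1 lower at −1.03 ± 0.15 (adjusted p = 0.000262), or −0.67 under quantile normalization. The part of the marker differences given above, fibroblast markers among them, in these pathway values was not tested.

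The other genes that the naming rule picks between the control cultures follow, each as E0771-LG shCtrl over E0771 shCtrl. Gdf11 was lower at −1.04 ± 0.12 and Ltbp4 at −1.15 ± 0.13 (limma, adjusted p = 9.09e-05 and 7.68e-05). Bmp1, a protease gene of the latency list, was lower at −1.40 ± 0.38 (adjusted p = 0.0193), or −0.91 without E0771-LG shCtrl replicate 1, a call lost without E0771 shCtrl replicate 1 (0.0668) or 3 (0.0707). Among SMADs, Smad3 was lower at −0.56 ± 0.11 (adjusted p = 0.00177). Smad1 was higher by 0.37 ± 0.11 (adjusted p = 0.018; 0.59 under quantile normalization), a call lost without E0771 shCtrl replicate 1 (0.0588) or 3 (0.0756) or E0771-LG shCtrl replicate 3 (0.0618), and Smad5 by 0.33 ± 0.09 (adjusted p = 0.0124, and 0.0623 without E0771 shCtrl replicate 3). Of the intracellular regulators, Smurf2 and Strap were higher by 0.84 ± 0.13 and 0.50 ± 0.13 (adjusted p = 0.000391 and 0.00786), and the ubiquitin ligase genes Wwp1 and Smurf1 were lower at −0.64 ± 0.11 and −0.47 ± 0.12 (adjusted p = 0.000681 and 0.00609). Runx2 was higher by 0.49 ± 0.16 (adjusted p = 0.0237, and at 0.84 under quantile normalization), a call lost without E0771 shCtrl replicate 1 (0.0554), 2 (0.0702) or 3 (0.0548) or E0771-LG shCtrl replicate 2 (0.0608) or 3 (0.0977). By chromosome, the median of all genes in this comparison ran from −0.47 on chromosome 17 to 0.25 on chromosome 11. Twsg1 and Runx2 lie on chromosome 17 and Smurf2 and Col1a1 on chromosome 11, and the part of those shifts was not tested.

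In the tumors no member and no other pathway gene was called. In PyMT, limma called 0 of 11361 genes (0%) after 3B10, with 307 at an unadjusted p under 0.05, and in 4T1 it called 0 of 11467 (0%), with 719 at an unadjusted p under 0.05, though 2 genes were called in 4T1 without 4T1 3B10 replicate 1. Of the 71 other pathway genes tested in each model, 4 had an unadjusted p under 0.05 in 4T1 and 3 in PyMT, with medians of −0.04 and −0.11 against 0.01 and 0.05 for all genes.

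Among the ligands in PyMT tumors, Tgfb1 was at 6.06, 6.02 and 5.79 with C44 and 5.44, 5.67 and 5.29 with 3B10. All 3 treated tumors were below the controls, with a difference of −0.49 ± 0.15 that did not pass correction (limma, adjusted p = 1). Bmp7 was at 0.35, 0.29 and 0.06 with C44 (19 to 24 reads) and 0.86, −0.96 and 2.60 with 3B10 (9 to 98 reads). The 3B10 tumors were spread on both sides of the controls, and the difference of 0.60 ± 0.82 became −0.28 without PyMT 3B10 replicate 3. Tgfb2 and Tgfb3 overlapped between the groups, with 5.71 to 6.30 and 7.74 to 9.08 over the 6 tumors. Tgfbr2 was at 7.41, 7.80 and 7.68 with C44 and 7.36, 7.35 and 6.90 with 3B10. All treated tumors were below the controls, by a log2 difference of −0.42 ± 0.18 (limma, adjusted p = 1), or −0.27 without PyMT 3B10 replicate 3. The other 4 members, Tgfbr1, Smad6, Smad7 and Id1, overlapped between the groups, with fold changes from −0.18 to 0.04. So 2 of 9 members did not overlap in PyMT, beside 0% of genes called and 947 of 11361 (8.34%) whose groups did not overlap.

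In 4T1 tumors all 9 members overlapped between C44 and 3B10, beside 1295 of 11467 genes (11.3%) whose groups did not overlap. Bmp7 was at 5.76, 4.78 and 4.80 with C44 and 3.81, 4.99 and 5.05 with 3B10, on the 4T1 scale. Replicate 1 of 3B10 was the lowest and replicate 1 of C44 the highest, with a difference of −0.50 ± 0.39 (limma, adjusted p = 0.919) that was −0.10 and −0.18 without these samples in turn. The other 8 members had fold changes from −0.32 ± 0.19 for Tgfbr1 to 0.30 ± 0.47 for Tgfb2. The difference between the tumor models in the 3B10 effect was tested for every gene, and limma called 0 of 10890 genes (0%), with 252 at an unadjusted p under 0.05 and 1 gene called without PyMT 3B10 replicate 2. Its value for Tgfb1 was −0.58 ± 0.21, PyMT minus 4T1 (adjusted p = 1).

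The other pathway genes with the smallest unadjusted p in the tumors also failed correction. In 4T1 they were Nrros at −0.59 ± 0.16, Tgfbr3 at −0.62 ± 0.18 and Id2 at −0.57 ± 0.17 (limma, adjusted p = 0.722 for each), and all 3 treated tumors were below all 3 controls for each gene. In PyMT they were Thbs1 at −0.96 ± 0.31 and Lefty1 at −1.67 ± 0.61, with all treated tumors below the controls, and Pmepa1, a TGF-beta-induced inhibitor gene, at −0.53 ± 0.23 with overlapping groups (adjusted p = 1 for each). Without PyMT 3B10 replicate 3, Lefty1 was at −1.04 and Pmepa1 at −0.34. For the difference between the models they were Id2 at 0.59 ± 0.22, Nrros at 1.00 ± 0.39 and Runx2 at −0.68 ± 0.31, PyMT minus 4T1 (adjusted p = 1 for each).

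In 4T1 the summed markers of some cell types differed between C44 and 3B10, and their part in the values of the pathway genes was not tested. All 10 leukocyte markers were lower with 3B10, with a median log2 fold change of −0.52 and log2 sums of 11.20, 11.10 and 11.25 in C44 and 10.78, 10.98 and 10.54 in 3B10, Tyrobp being the most abundant. All 9 epithelial markers tested were higher, with a median of 0.55 and sums of 11.78, 11.95 and 11.93 in C44 and 12.40, 12.38 and 12.44 in 3B10. Krt18 was the most abundant of these. Krt5, not tested, was near the lowest value in C44 and in 3B10 replicates 2 and 3 (−0.87 and −0.98) and at 5.68 in 3B10 replicate 1. The sums did not overlap for either list. Markers of skeletal muscle and fat had a median of 2.43, from the muscle genes Acta1 (5.18 ± 0.79, which passed the filter mainly through 3B10), Mylpf (2.73 ± 0.56) and Tnnt3 (2.13 ± 0.68), while the fat marker Fabp4 was at 0.00 ± 0.47. The list had sums of 4.48, 5.53 and 5.95 in C44 and 5.95, 7.61 and 8.09 in 3B10, and Fabp4 and Tnnt3 were their most abundant genes in C44 and 3B10. The fibroblast list, led by Thy1, had a median of 0.20 and the endothelial list, led by Cdh5, a median of −0.22. None of these marker genes was called by limma, with 6 of 10 leukocyte, 6 of 9 epithelial, 3 of 4 muscle and fat, 2 of 9 fibroblast and 0 of 8 endothelial markers at an unadjusted p under 0.05.

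In PyMT the marker lists had median log2 fold changes of −0.20 for fibroblasts (led by Postn), 0.00 for endothelium (Pecam1), −0.04 for leukocytes (Csf1r, with Cd3e near the lowest value), −0.06 for epithelium (Krt8) and −0.51 for muscle and fat (Fabp4). The summed leukocyte markers were 7.84, 7.80 and 7.50 in C44 and 8.16, 7.57 and 7.39 in 3B10. Those of fibroblasts were 9.08, 9.78 and 8.33 in C44 and 9.55, 8.37 and 8.55 in 3B10. Neither list separated C44 from 3B10, and their part in the Tgfb1 and Tgfbr2 values of PyMT was not tested.

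**Figure D5:**
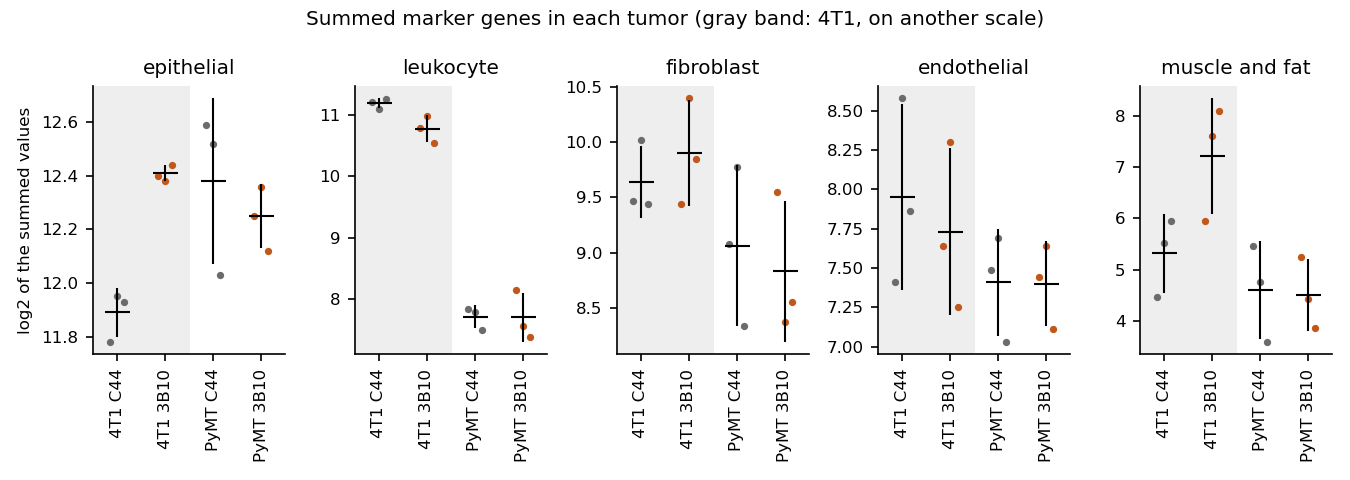
Summed marker genes of 5 cell types in each tumor, as log2 of the sum, by group, with points for tumors and bars for mean ± SD; the gray band marks 4T1, on another scale. In 4T1 the epithelial sums with 3B10 (12.38 to 12.44) are above those with C44 (11.78 to 11.95).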

How the data were processed

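Bulk RNA sequencing values of 24 samples were read from 1 deposited table of 12091 genes. The authors aligned reads to mm10 (GRCm38) with HISAT2 and counted them with featureCounts, and their notes also name limma and edgeR. The deposited values of the PyMT, E0771 and E0771-LG samples are log2 CPM (counts-per-million) with an offset of 0.5 reads, and at a tolerance of 0.01 reads 100% of them gave whole reads. The deposited 4T1 values are log2 values that look scaled by gene length, since 4T1 minus E0771-LG fell with log2 exon length (slope −0.671 over 7546 genes) and PyMT and E0771 minus E0771-LG did not (0.099 and 0.16). Depth in 4T1 is unknown.

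Each comparison of 6 samples was fitted alone with limma 3.58.1 in R 4.3.3 (lmFit, then eBayes with trend and robust), over genes at least 1 above the sample's lowest value, off the log scale, in at least 3 samples. P-values were adjusted by Benjamini-Hochberg over all genes tested. Differences of effects used an interaction term over 12 samples. Tables and plots used Python 3.11.15, numpy 2.4.6, pandas 2.3.3 and matplotlib 3.10.9. Positions came from GENCODE vM21 and promoters from RefSeq. The test was also tried on simulated data, and no result given here rests on that trial.

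The members and lists were chosen with earlier results of these data known. Named were the 9 members and Ptn, and from the pathway lists in each comparison up to 2 called genes with the largest fold change in each direction per list, or, with none called, the 3 genes with the smallest unadjusted p. Of the marker lists, the most abundant gene and defining markers near the lowest value were named, and for Bmp7 the 3 most similar genes. One TGF-beta-target gene that this rule picks is not reported here, and the list counts include it. Alternatives changed the filter, pseudocount, scaling, variance shrinkage, samples fitted together, replicate block and single samples, and used voom on the recovered reads.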

Additional observations from a re-analysis of the deposited data

Results flagged for a closer look

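The knockdown effect differed between E0771-LG and E0771 for 19 pathway genes named by the rule, by the limma interaction test at an adjusted p under 0.05. Each value here is the log2 fold change in E0771-LG minus that in E0771. Col1a1 differed by −5.70, Thbs1 by −4.78, Col3a1 by −3.29, Lrrc32 by −1.85, Nbl1 by −1.17, Smurf2 by −1.13 and Runx2 by −0.95. The size for Col1a1, with few reads in E0771-LG shPTN, ranged from −6.69 to −3.98 over 20 alternatives. Gdf11 differed by −0.87, Smad4 by −0.73, Ski by −0.67, Smad2 by −0.57 and Eng by −0.56. Differences were positive for Junb at 1.40, Fstl3 at 1.09, Usp15 at 0.86, Acvr1b at 0.85, Rgma at 0.82, Tgif1 at 0.58 and Klf10 at 0.54. The effects had opposite signs, and were called in both lines, for Thbs1 (2.70 in E0771 and −2.07 in E0771-LG), Col1a1 (1.02 and −4.68), Usp15 (−0.55 and 0.31) and Junb (−0.80 and 0.59). Not all of these calls were stable. With a block on replicate number the Thbs1 call in E0771 was lost (adjusted p = 0.0668). Col1a1 in E0771 was lost in the joint fit of 18 samples (0.0757). Junb was called in 9 of 16 alternatives in E0771 and 11 of 16 in E0771-LG, and Usp15 in E0771-LG was lost without shPTN replicate 3 (0.0884). Lrrc32 was at 1.36 and −0.50, Ski at 0.24 and −0.43, and Eng at 0.01 and −0.55.

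Among these, 3 differences lost their call when samples were left out. Fstl3 (adjusted p = 0.0259) had 0.0643 without E0771 shCtrl replicate 3, 0.0634 and 0.0618 without E0771 shPTN replicates 2 and 3, 0.0657 without E0771-LG shCtrl replicate 3, and 0.0612 and 0.0643 without E0771-LG shPTN replicates 2 and 3. Tgif1 (adjusted p = 0.0353) had 0.0859 and 0.078 without E0771 shCtrl replicates 2 and 3, 0.0803 without E0771 shPTN replicate 2, 0.0913 without E0771-LG shCtrl replicate 3, 0.0985 and 0.0814 without E0771-LG shPTN replicates 2 and 3, and 0.0507 under median-of-ratios scaling. Klf10 (adjusted p = 0.0226) had 0.0525 without E0771 shCtrl replicate 2, 0.0533 without E0771 shPTN replicate 2, 0.0544 without E0771-LG shCtrl replicate 3 and 0.0611 without E0771-LG shPTN replicate 2.

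For 2 members every shPTN sample moved one way from the control mean in E0771 and the other way in E0771-LG. The difference was −2.47 for Tgfb2 and −0.98 for Tgfbr1, and it was not tested, since the E0771-LG comparison chose the list. The groups overlapped for Tgfb2 in E0771-LG and for Tgfbr1 in E0771, where Tgfbr1 was at 0.18 ± 0.11 (limma, adjusted p = 0.298).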

How the results depend on the processing

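Over all alternatives, the count of members called stayed within 1.5 times its value in 4T1, PyMT and E0771. The same held between the control cultures with Bmp7 left out (4 to 7, main 5). Members called in E0771-LG, which chose the list, were not counted. Counts that moved further were genes called in E0771, 1171 to 2166 on leaving out 1 sample and 1069 with 18 samples in one fit, pathway genes called in E0771, 17 in that fit, and pathway genes called in E0771-LG, 16 to 33 on leaving out 1 sample. Leaving out 1 sample gave 0 to 2 genes called in 4T1 and 0 to 1 for the difference of 3B10 effects. With voom on the recovered reads (100% whole), 0 genes were called in PyMT, 2141 in E0771, 4824 in E0771-LG and 5718 between the control cultures.

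No called fold change reversed. Those that reversed were of genes not called or not tested. On leaving out 1 sample, fold changes in 4T1 ranged from −0.02 to 0.21 for Tgfb1, −0.12 to 0.80 for Tgfb2, −0.29 to 0.04 for Tgfb3, −0.24 to 0.04 for Tgfbr2, −0.13 to 0.07 for Smad6, −0.21 to 0.08 for Smad7 and −0.14 to 0.14 for Id1. In PyMT they ranged from −0.28 to 1.5 for Bmp7, −0.09 to 0.18 for Tgfb2, −0.07 to 0.21 for Tgfbr1 and −0.15 to 0.19 for Smad6. In the cells they ranged from −0.10 to 0.07 for Tgfbr2 and −0.13 to 0.10 for Id1 in E0771, from −0.04 to 0.39 for Smad7 in E0771-LG, and from −0.02 to 0.15 for Tgfbr2 between the control cultures. For the difference of 3B10 effects they ranged from −0.71 to 0.21 for Tgfb2, −0.14 to 0.19 for Smad6, −0.26 to 0.03 for Smad7 and −0.22 to 0.06 for Id1. Median-of-ratios scaling gave −0.01 for Tgfbr1 in PyMT and 0.01 for Tgfbr2 in E0771, and quantile normalization gave 0.00 and 0.04 for these and 0.01 for Smad6 in 4T1. The cause was not tested.

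Other uncalled or untested fold changes kept their sign but moved by more than 1.5 times on leaving out 1 sample. They ranged from −0.72 to −0.10 for Bmp7 and −0.50 to −0.18 for Tgfbr1 in 4T1, and in PyMT from 0.13 to 0.72 for Tgfb3, −0.53 to −0.27 for Tgfbr2, −0.25 to −0.10 for Smad7, −0.16 to −0.03 for Id1, 0.13 to 0.77 for Ptn, −2.03 to −1.04 for Lefty1 and −0.75 to −0.34 for Pmepa1. In the cells they ranged from 0.09 to 0.26 for Tgfbr1 in E0771, −0.33 to −0.06 for Tgfb1 in E0771-LG and 0.16 to 0.51 for Tgfbr1 between the control cultures. For the difference of 3B10 effects they ranged from 0.22 to 1.99 for Bmp7, 0.22 to 0.82 for Tgfb3, 0.22 to 0.53 for Tgfbr1 and −0.46 to −0.15 for Tgfbr2.

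Replicate numbers did not pair the samples (same-number r −0.327 to 0.436), and a block on them, as in a paired fit, gave 0 genes called in 4T1 and PyMT, 2450 in E0771, 5012 in E0771-LG and 5993 between the control cultures. With the block 4 members were called in E0771 and, without Bmp7, 5 between the control cultures. For the difference of knockdown effects the block gave 3729 genes, and for that of 3B10 effects 0. Under it Thbs1 (adjusted p = 0.0668), Id2 (0.114), Id3 (0.101) and Tie1 (0.0829) were not called in E0771, nor Flt1 (0.0588) in E0771-LG. Depth limits Smad6, with 2 to 22 reads in the cells, and Bmp7 and Tgfb3 in E0771-LG shCtrl, with 14 to 25.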
